A study of Mus musculus with 6 samples.

Results

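The cytosolic ribosome is built from ribosomal RNA and a fixed set of ribosomal proteins, and the genes for those proteins were followed here in mouse muscle stem cells labelled as knockout (KO) for Setdb1, the gene of a histone methyltransferase that marks silenced chromatin. Members were taken from the deposited count table by symbol: names of the forms Rpl and Rps with a number and the usual suffixes, the stalk genes Rplp0 to Rplp2 and Rpsa. Pseudogenes with -ps symbols and the Rps6k kinases were left out, and Rps4l was kept by name. This gave 90 of the 55487 genes in the table. Of these, 77 encode core proteins (43 of the large subunit, 31 of the small subunit and 3 of the stalk), 7 are protein-coding paralogs of core genes and 6 are annotated as processed pseudogenes, that is, copies made by reverse transcription of a messenger RNA.

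The KO group had 3 libraries, labelled genotype KO and treated with tamoxifen. The control group had 3 libraries, labelled WT and treated with oil. All came from animals 10 weeks old, 60 h after CTX, that is, cardiotoxin, which destroys muscle fibres when injected and so sets off their repair. The promoter that drives recombination and the deleted exon are not named in the labels, and genotype and tamoxifen cannot be told apart, since they changed together. The labels call the libraries biological replicates, without saying whether each is 1 animal.

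Ribosomal proteins are mostly needed in equal numbers, since each ribosome holds about a single copy of most of them and excess protein is degraded. Their messenger RNAs are among the most abundant in a growing cell, and they are known for beginning with a run of pyrimidines, the TOP motif, through which the mTOR pathway adjusts their translation. Muscle stem cells leave quiescence and enlarge after injury, a state that calls for ribosome production.

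Setdb1 had 62, 62 and 75 counts in the KO libraries and 174, 194 and 174 in the control libraries (log2 fold change -1.30, SE 0.16, adjusted p = 2.092e-04, edgeR), so its transcript was reduced but still counted in KO libraries. Libraries held between 4052569 and 5690844 counts, of which protein-coding genes had 2002124 to 3050460. The 10 muscle stem cell markers summed to between 1485 and 1917 CPM in KO libraries and between 1334 and 1404 CPM in control libraries, where CPM is counts scaled by TMM-adjusted library size. One of them, Myod1, which commits cells to the muscle lineage, was called higher. It stood at 361, 276 and 238 CPM in KO libraries and 141, 148 and 137 CPM in control libraries (adjusted p = 7.791e-04, edgeR). The median log2 fold change of the 10 was 0.01. At an unadjusted p under 0.05, 3 were higher and 1 lower, against 10.1% and 7.64% of all tested genes. Beside Myod1 these were Des (log2 fold change 0.46, SE 0.14), Cdh15 (0.38, SE 0.17) and Cd34 (-0.27, SE 0.12), none of them called. Of 8 fibro-adipogenic markers, 7 were tested and none was called, but all 7 were positive, with a median of 0.49, and they summed to 1537 to 2415 CPM in KO libraries and 830.0 to 1855 CPM in control libraries. The 8 neutrophil markers summed to 1.6, 700.0 and 264 CPM in KO libraries 1, 2 and 3, and to 0.801, 1.67 and 1977 CPM in control libraries 1, 2 and 3. Neutrophil transcripts thus stood out in control library 3, and KO libraries 2 and 3 also held them. None of the 5 neutrophil markers with enough counts to test was called.

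A single ribosomal protein gene, Rps4l, was called between the groups, and it was higher in KO cells. Of the 90 genes, 87 had enough counts to be tested in the edgeR quasi-likelihood fit over 11224 genes, and all 77 core genes were among them. Across all tested genes, 2.22% were called higher, 0.615% lower and 2.83% in either direction (Benjamini-Hochberg adjusted p under 0.05). No core gene was called, and at an unadjusted p under 0.05 2 core genes were higher and 0 lower, against 17.7% of all tested genes in either direction (10.1% higher). DESeq2 and limma-voom called no core gene either, and called 1.32% and 1.78% of the genes they tested.

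**Figure D1:**
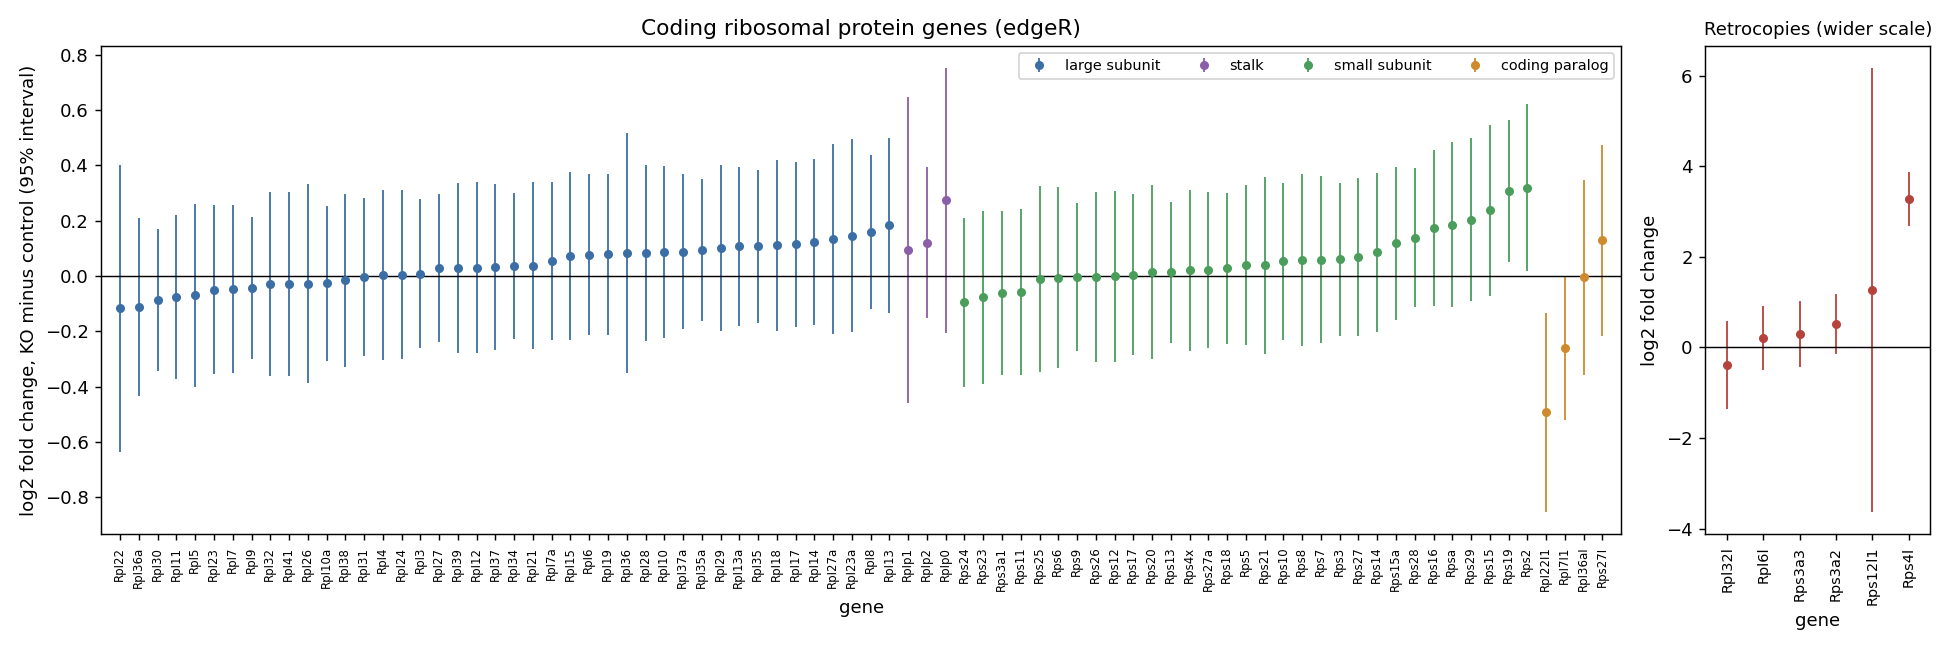
Log2 fold change of tested ribosomal protein genes, KO minus control, with its 95% interval from the edgeR fit (vertical axis), ordered by class and size (horizontal axis). Colours mark the class. The core genes shown lie between -0.12 (Rpl22) and 0.32 (Rps2), and in the panel of retrocopies, which has a wider scale, the interval of Rps4l lies far above 0.

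Rps4l (ENSMUSG00000063171) is an intronless relative of Rps4x, the X-linked gene of small subunit protein S4, which binds ribosomal RNA early in the assembly of the subunit. It lies at chr6:148354656-148355598 on the plus strand (GRCm38), inside Tmtc1, which runs on the minus strand, and its annotated exon overlaps no other exon. GENCODE lists it as a transcribed processed pseudogene. A search of its transcript found a longest open reading frame of 262 codons, against 263 codons in Rps4x, and 80.1% identity to the Rps4x coding sequence, with 157 substitutions. The start of both frames is printed because the count of Rps4l depends on telling its reads from those of Rps4x. The first 150 bases from the start codon are given, on the coding strand, with Rps4l at chr6:148354710-148354859, and capitals mark the 31 positions at which they differ.
Rps4l: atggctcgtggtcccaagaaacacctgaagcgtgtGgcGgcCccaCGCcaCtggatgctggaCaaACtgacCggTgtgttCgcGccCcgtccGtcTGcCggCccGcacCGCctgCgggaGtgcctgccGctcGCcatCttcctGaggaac
Rps4x: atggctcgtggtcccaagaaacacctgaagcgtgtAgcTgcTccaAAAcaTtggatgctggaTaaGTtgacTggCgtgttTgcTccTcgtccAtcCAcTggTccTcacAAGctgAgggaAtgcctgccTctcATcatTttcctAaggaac

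No stretch of 75 bases, the length of the reads, was the same in the aligned frames. Every window of that length held at least 6 differences, with a median of 16 and at most 23. Of the 50-base words of the Rps4l transcript, 14.9% also occur in another gene, and that gene was Rps4l-ps alone, which had 0, 0 and 1 counts in KO libraries and 0 in each control library.

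Rps4l had 65, 61 and 76 counts in KO libraries 1, 2 and 3, against 6, 8 and 9 in control libraries 1, 2 and 3. Scaled by library, it stood at 17.3, 12.5 and 14.9 CPM in KO libraries and at 1.2, 1.67 and 1.66 CPM in control libraries. The groups did not overlap, and the lowest KO library was several times above the highest control library. The log2 fold change was 3.27 (SE 0.28, 95% interval 2.67 to 3.87, adjusted p = 5.383e-06, edgeR), and the call held under every alternative run. Tmtc1, the gene around it on the other strand, had 13, 3 and 2 counts in KO libraries and 3, 1 and 7 in control libraries, too few to test.

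Rps4x had 2017, 3322 and 3126 counts in KO libraries and 2746, 2791 and 3639 in control libraries. It averaged 610.0 ± 72.8 CPM in KO cells and 602 ± 63.3 CPM in control cells (SD, n = 3 each), and the groups overlapped (log2 fold change 0.02, SE 0.14). Per length of annotated exon, and scaled as TPM values are but over protein-coding genes, Rps4l reached 80.0 ± 15.1 in KO cells and 8.13 ± 0.963 in control cells, beside 1886 ± 173 and 1878 ± 39.3 for Rps4x. Rps4l therefore stayed far below Rps4x in both groups.

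**Figure D2:**
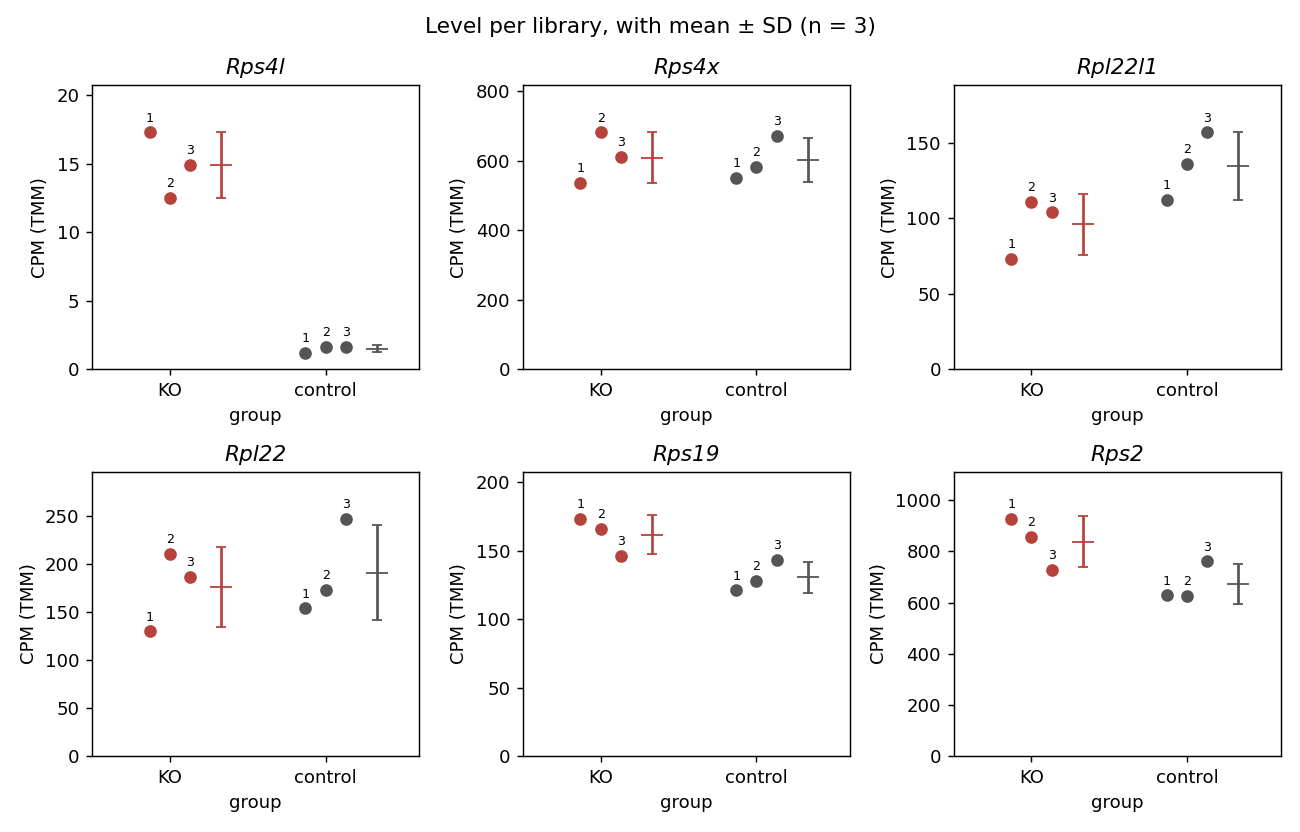
Level in CPM (vertical axis, from 0) of 6 ribosomal protein genes in each library, with KO on the left and control on the right; numbers are replicates, and the bar shows mean ± SD (n = 3). The groups are apart for Rps4l, Rpl22l1 and Rps19, and overlap for Rps4x, Rpl22 and Rps2.

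Among core genes the differences were small and their intervals narrow. The median log2 fold change was 0.04, beside 0.01 over all tested genes, with 54 positive and 23 negative values and a median SE of 0.14. The 95% interval lay inside a 1.5-fold change for 72 of the 77 genes and inside a 2-fold change for all 77. The lowest bound was that of Rpl22, at 0.644-fold. Counts are relative within a library, so a change shared by nearly all genes could not be seen, and in bulk samples fewer cells of a type and less RNA per cell cannot be told apart.

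Groups that did not overlap were also rare. Of the 87 tested members, 5.75% had groups that did not overlap, 3 higher and 2 lower in KO cells, against 24.3% of all tested genes (12.8% higher and 11.5% lower). In the core the only such gene was Rps19. Groups overlapped for every large subunit and stalk gene.

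In the small subunit, Rps19, whose human form is mutated in Diamond-Blackfan anaemia, stood at 173, 166 and 146 CPM in KO libraries and at 121, 128 and 143 CPM in control libraries. Each KO library was above each control library, the closest pair being KO library 3 and control library 3. The log2 fold change was 0.31 (SE 0.12), and it did not pass (adjusted p = 0.197, edgeR). This was the smallest adjusted p of the core.

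Rps2, a protein near the messenger RNA entry channel, was measured at 926, 858 and 729 CPM in KO libraries and 628, 625 and 761 CPM in control libraries. KO library 3 lay below control library 3, so the groups overlapped (log2 fold change 0.32, SE 0.14, adjusted p = 0.251, edgeR). Of the 50-base words of Rps2, 43.0% also occur in other genes. The top sharer, Rps2-ps10, had a negative log2 fold change, given in the closing section. Rpsa, the laminin receptor protein of the small subunit, had a log2 fold change of 0.19 (SE 0.14). Rps6, the substrate of S6 kinase, averaged 756 ± 98.8 CPM in KO cells and 760.0 ± 133 CPM in control cells. Rps15, which acts in the late maturation of the subunit, had a log2 fold change of 0.24 (SE 0.14), and Rps3a1, one of the most abundant per length, had -0.06 (SE 0.14). None of these passed.

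In the large subunit, Rpl5 and Rpl11 form with 5S ribosomal RNA the particle that binds Mdm2, the ligase that degrades p53. Rpl5 averaged 671 ± 97.5 CPM in KO cells and 705 ± 125 CPM in control cells. Rpl11 averaged 172 ± 14.4 CPM in KO cells and 181 ± 33.7 CPM in control cells. Groups overlapped for both, with a log2 fold change of -0.07 for Rpl5 (SE 0.16) and -0.08 for Rpl11 (SE 0.14).

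The stalk proteins recruit translation factors to the large subunit. Rplp0, the base of the stalk, was at 776, 705 and 477 CPM in KO libraries and at 450.0, 477 and 692 CPM in control libraries. Rplp1 was at 840.0, 826 and 636 CPM in KO libraries and at 539, 599 and 1017 CPM in control libraries. Control library 3 stood with KO libraries 1 and 2 for both genes, and Rplp1 had its highest value there. The log2 fold changes were 0.27 (SE 0.21) for Rplp0, 0.10 (SE 0.24) for Rplp1 and 0.12 (SE 0.13) for Rplp2, the partner of Rplp1, and none passed.

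Of the 7 coding paralogs, 4 could be tested, and none was called. Rpl22l1, which in mouse can replace Rpl22 in the ribosome and is repressed by it, had 275, 539 and 530 counts in KO libraries, against 561, 651 and 850 in control libraries. It stood at 73.1, 111 and 104 CPM in KO libraries and at 112, 136 and 157 CPM in control libraries. All KO libraries were below all control libraries, but KO library 2 and control library 1 were nearly equal. The log2 fold change was -0.49 (SE 0.17, adjusted p = 0.146, edgeR), and it passed only when no filter on low counts was applied (adjusted p = 0.0346, where 1.46% of all genes were called). Opposite-strand exons cover 8.0% of its exon bases, and the strand setting of the counts is not given.

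Rpl22, its partner, averaged 176 ± 41.6 CPM in KO cells and 191 ± 49.1 CPM in control cells, and its groups overlapped (log2 fold change -0.12, SE 0.22). Rpl7l1, a relative of Rpl7, was at 51.1, 60.0 and 58.2 CPM in KO libraries and at 61.1, 74.3 and 67.8 CPM in control libraries. Its groups did not overlap, by a narrow margin (log2 fold change -0.26, SE 0.12, adjusted p = 0.277, edgeR). Rpl7 itself had a log2 fold change of -0.05 (SE 0.14).

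Rps27l, a relative of Rps27 whose transcription p53 activates in human cells, was at 77.1, 120.0 and 103 CPM in KO libraries and at 79.5, 91.0 and 104 CPM in control libraries. The groups overlapped (log2 fold change 0.13, SE 0.16), as they did for Rps27 (0.07, SE 0.13). Rpl36al had a log2 fold change of 0.00 (SE 0.16), and its partner Rpl36a one of -0.11 (SE 0.15). The remaining paralogs were too low to test. Rpl3l, whose protein belongs to heart and skeletal muscle fibres, had 0 counts in every library. Rpl10l, a testis gene, had 1 count in KO library 3 and 0 elsewhere, and Rpl39l had 0, 2 and 5 counts in KO libraries and 0, 0 and 2 in control libraries. Their partners were abundant and did not pass, with log2 fold changes of 0.01 for Rpl3 (SE 0.13), 0.09 for Rpl10 (SE 0.15) and 0.03 for Rpl39 (SE 0.14), and Rpl26, whose paralog Rpl26l1 was not analysed here, had -0.03 (SE 0.17).

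The other 5 retrocopies had few counts and share much sequence with other genes. Rps3a2 had 36, 40 and 24 counts in KO libraries and 20, 29 and 30 in control libraries (log2 fold change 0.51, SE 0.31), and 90.2% of its words occur in other genes. Rps12l1 had 0, 39 and 32 counts in KO libraries and 0, 30 and 0 in control libraries. Its 399 bases match Rps12 with 0 substitutions and 100% of its words are shared, so which gene its reads came from is uncertain. Rpl32l, Rpl6l and Rps3a3 had log2 fold changes of -0.39 (SE 0.46), 0.20 (SE 0.33) and 0.30 (SE 0.34). Core genes share words with other genes too, with a median of 21.0% and a range of 0 to 81.1%, so the authors' counting could divide some reads among them.

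The share of ribosomal protein transcripts in the messenger pool overlapped between the groups. The coding members held 5.56%, 6.17% and 5.25% of protein-coding counts in KO libraries 1, 2 and 3, and 4.8%, 5.2% and 6.2% in control libraries 1, 2 and 3. The lowest and the highest share were both in the control group. The means were 5.66 ± 0.468% in KO cells and 5.4 ± 0.721% in control cells (SD, n = 3 each). Small subunit counts stood to large subunit and stalk counts as 0.623 ± 0.00624 in KO cells and 0.627 ± 0.0182 in control cells, a difference smaller than the spread between control libraries.

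The genes moved together from library to library within a group. For 81 coding genes, the median log2 distance from the mean of both groups was -0.06, 0.17 and -0.05 in KO libraries 1, 2 and 3, and -0.22, -0.06 and 0.20 in control libraries 1, 2 and 3. KO library 2 and control library 3 were above this mean for 79 genes each, and control library 1 for 0. Over all tested protein-coding genes the same medians lay between -0.00144 and 0.02. The libraries with the highest ribosomal protein level in each group were also those with the most neutrophil transcripts in it, and the part of these transcripts in the level was not tested.

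**Figure D3:**
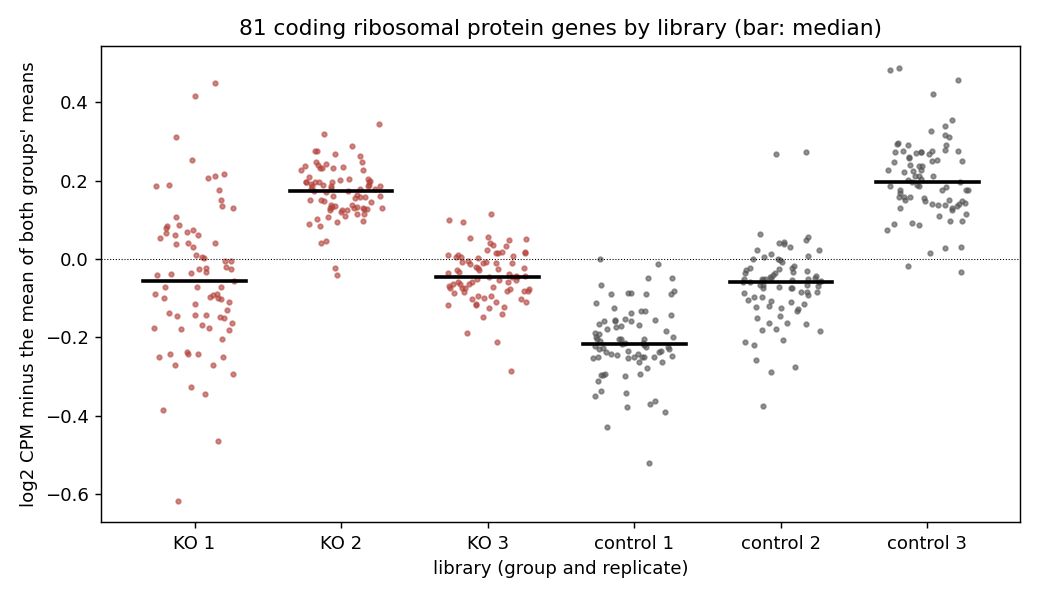
Each of 81 coding ribosomal protein genes in each library (horizontal axis, KO left, control right), as log2 CPM minus the mean of the group means (vertical axis); the bar is the median. Genes of a library sit together, highest in KO 2 and control 3 and lowest in control 1.

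The median over all tested members therefore moved with the choice of libraries, and so did the count of calls. Without control library 3, 2 members were called (edgeR), where 2.98% of all genes were, and without KO library 1 as well 2 were, where 3.5% of all genes were. It was 0.04 with 6 libraries, 0.15 without control library 3, -0.05 without control library 1 and -0.03 without KO library 2. Without control library 3 and KO library 1 together it was 0.21, and 3 members were negative, against 27 with all libraries. Library totals in place of TMM scaling gave a median of -0.01, on a scale that shifted all genes by -0.07.

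KO library 1 differed in another way: its genes were spread more widely, with an SD of 0.18 over genes against 0.07 in each other KO library. The distance from the group mean had a Pearson r of 0.512 with the GC content of the transcript over 81 genes in KO library 1, while KO library 2 had -0.392 and KO library 3 had -0.48. Over 10347 protein-coding genes these were 0.287, -0.124 and -0.24. Distances from the mean of 3 libraries sum to about 0, so the values of a group are tied to each other. In control libraries 1, 2 and 3 the members had an r of -0.186, -0.0393 and 0.155. Genes share the library here and are not independent. The fold changes of the members had an r of 0.391 with GC content, and 0.165 without KO library 1. Whether GC content accounts for the order of the fold changes was not tested.

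**Figure D4:**
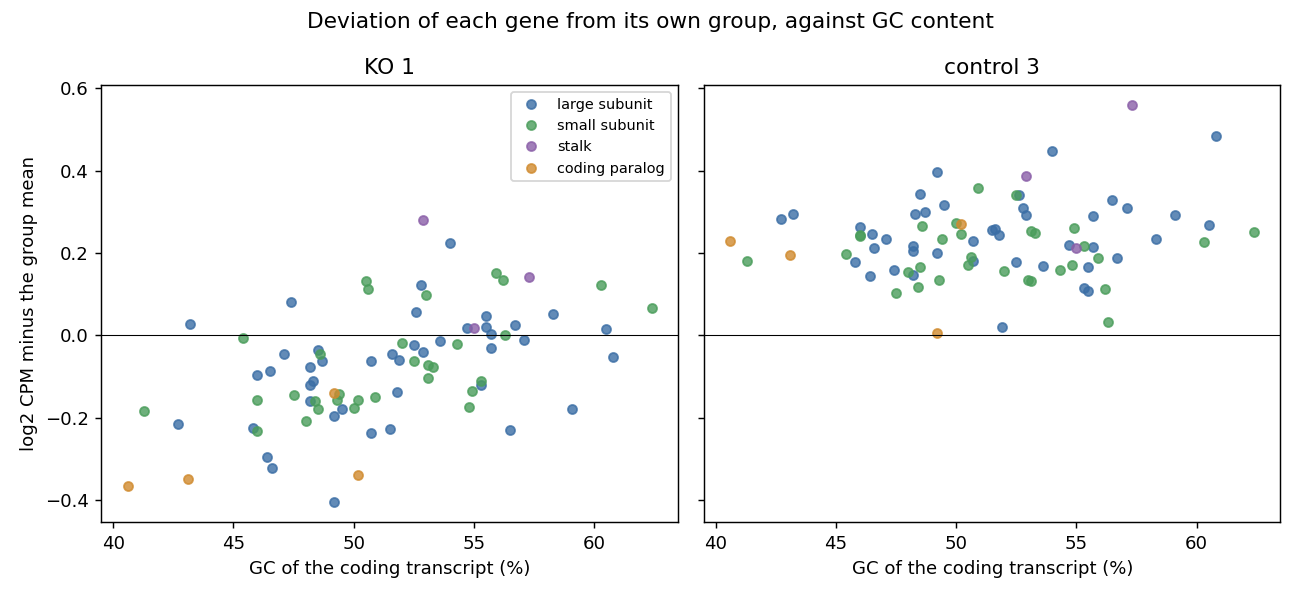
Log2 CPM minus the group mean (vertical axis) against GC content of the transcript in percent (horizontal axis) for 81 coding ribosomal protein genes, in KO library 1 and control library 3; colours mark the class. Most genes low in GC lie below 0 in KO library 1 (r = 0.512), but Rpl15 lies above it, and some genes high in GC, such as Rpl38, lie below it. In control library 3 all genes lie above 0 (r = 0.155).

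Although most of their proteins are needed in about equal numbers, the core genes differed widely in transcript level. On the same scale per length of exon as for Rps4l, they ran from 158 for Rps19 to 7497 for Rplp1, a 47.4-fold range, with a median of 974. Only 78 of 10284 other protein-coding genes (0.758%) were above that median. Rplp1 was at 8787, 8167 and 6384 in KO libraries and at 6066, 6156 and 9420 in control libraries. Rpl23a, Rps3a1, Rps15 and Rpl4 followed, at 4062, 3103, 3055 and 2873 over all libraries. The order of the last 3 does not exceed their spread, with SDs of 51.1 to 391 within groups. These levels depend on the annotated length. With the longest transcript as length the median was 1236, and the core ran from 182 to 6011 for Rplp1. Rps19, at 224, was then not the lowest. Rpl41 and Rpl10, at 3869 and 3318, were then above Rps15 and Rps3a1, at 2697 and 2487. The range, the lowest gene and the genes that follow Rpl23a thus changed with the length used. Opposite-strand exons overlap 19 coding members and cover 59.7% of the exon bases of Rpl23a. The strand setting of the counts is not given. The bodies of 30 members also hold 58 snoRNA genes, the guides of ribosomal RNA modification.

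Of the coding members, 64 had a start site sequence in RefSeq (GRCm38.p6), and many shared short words there. The word CTTTC stood within 20 bases of the start, on the gene's strand, in 19 of them (29.7%), against 5.9% of all 16513 genes in the table. On the other strand, read as GAAAG, it stood in 6.25% of the members and 4.98% of all genes. A run of a C and at least 7 more pyrimidines, lying within the 22 bases around the start on the gene's strand, was found in 34.4% of the members and 7.67% of all genes. The word CCGGAAG, which ETS factors bind, was sought on either strand from 250 bases before to 50 bases after the start. It lay there in 40.6% of the members and 13.4% of all genes. Overlap between the words was not removed, and words and windows were chosen after the members' start sequences were seen, so these shares are a description. The 40 bases around the start of 4 genes show how they differ, with CTTTC in capitals: Rpl35 at chr2:39005112-39005151 (minus strand), Rpl38 at chr11:114668560-114668599 (plus), Rpl22l1 at chr3:28805488-28805527 (plus) and Rps4x at chrX:102189372-102189411 (minus).
Rpl35: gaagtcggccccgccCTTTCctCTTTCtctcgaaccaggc
Rpl38: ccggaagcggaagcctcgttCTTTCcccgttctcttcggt
Rpl22l1: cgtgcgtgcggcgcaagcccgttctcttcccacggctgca
Rps4x: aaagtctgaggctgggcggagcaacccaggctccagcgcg

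Genes that make or use ribosomes were set beside the ribosomal proteins. Of 56 tested ribosome biogenesis genes, 0 were called higher and 1 lower, against 2.22% and 0.615% of all tested genes. In this list 47 were negative and the median log2 fold change was -0.24, against 0.04 in the core. At an unadjusted p under 0.05, 21 were lower, which 7.64% of all tested genes were. The called gene was Nat10, which acetylates cytidines of ribosomal RNA. It fell to 26.9, 30.8 and 35.2 CPM in KO libraries, against 47.7, 43.4 and 46.6 CPM in control libraries (log2 fold change -0.56, SE 0.13, adjusted p = 0.0363, edgeR). DESeq2 and limma-voom did not call it (adjusted p = 0.189 and 0.0616), and the call ended without any 1 library but KO library 3 (adjusted p up to 0.153).

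The summed level of the biogenesis genes was 5253, 6556 and 6293 CPM in KO libraries and 6954, 7386 and 7632 CPM in control libraries. The groups did not overlap, and KO library 1 was the lowest. Ncl, named here for its large part in the sum, averaged 2016 ± 431 CPM in KO cells and 2634 ± 249 CPM in control cells. It was not called (adjusted p = 0.259, edgeR). The sums of the chaperone and 5S, snoRNA host, translation factor, and TOR and Myc lists below were also lower in KO libraries without overlap. Those of the other TOP and mitochondrial lists overlapped. Some margins were narrow. The highest KO and lowest control sums were 8171 and 8194 CPM for translation factors. They were 320 and 326 CPM for chaperones and 5S, and 788 and 793 CPM for TOR and Myc genes. In the TOR and Myc list 7 genes were positive and 8 negative, with a median log2 fold change of -0.01. Of all tested genes taken singly, 11.5% were lower in KO libraries without overlap. As given above, Myod1 was higher in KO cells, and Des and Cdh15 had positive values and Cd34 a negative one. The tested fibro-adipogenic markers had positive values. The part of these markers in the differences between sums was not tested. Of 10 genes for ribosomal protein chaperones and the 5S particle, none was called and the median was -0.24. Ltv1, a small subunit assembly factor, had -0.02 (SE 0.12), and Bccip, whose yeast relative accompanies Rpl23, had -0.23 (SE 0.14). At an unadjusted p under 0.05, 2 of these were lower and 0 higher. Among 12 tested noncoding hosts of snoRNAs, 1 was lower: Zfas1 fell to 17.6, 16.8 and 24.6 CPM in KO libraries, against 36.6, 35.7 and 37.1 CPM in control libraries (log2 fold change -0.88, SE 0.16, adjusted p = 0.00567, edgeR). The list's median was -0.25, and an unadjusted p was under 0.05 for 4 lower and 1 higher gene. Across all tested genes, 0.615% were called lower, and an unadjusted p was under 0.05 with KO lower in 7.64% and higher in 10.1%.

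Of 32 translation factor genes, none was called in the edgeR fit (1 had an unadjusted p under 0.05, and it was lower), with a median of -0.13. Eif4g2 and Eif4a1, the most abundant of them, stood at -0.12 (SE 0.14) for Eif4g2 and -0.19 (SE 0.14) for Eif4a1 on the log2 scale. The 18 other genes with TOP messenger RNAs had a median of 0.00 and 0 calls (1 was lower with an unadjusted p under 0.05). Eef1a1, the elongation factor, averaged 5226 ± 394 CPM in KO cells and 4737 ± 299 CPM in control cells (log2 fold change 0.14, SE 0.15), and Npm1, a nucleolar chaperone, had -0.34 (SE 0.17).

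Fau, which encodes Rps30 fused to a ubiquitin-like protein and lies outside the symbol pattern, had a log2 fold change of 0.21 (SE 0.14). Of 15 genes of TOR signalling and Myc control, none was called (unadjusted p was under 0.05 for 1 higher and 1 lower gene). Myc, which drives ribosome production, averaged 113 ± 9.12 CPM in KO cells and 142 ± 14.8 CPM in control cells (log2 fold change -0.32, SE 0.12, adjusted p = 0.184, edgeR). Its groups did not overlap, with KO lower, as was so for 11.5% of all tested genes. Larp1, which binds TOP messenger RNAs, had -0.19 (SE 0.12). The 77 tested mitochondrial ribosomal protein genes, a separate ribosome, had a median of -0.09 and 0 calls (unadjusted p was under 0.05 for 1 higher and 5 lower genes); Mrpl12 and Mrpl42 had -0.12 (SE 0.12) and -0.22 (SE 0.14). Over all tested genes, 2.83% were called, and an unadjusted p was under 0.05 with KO higher in 10.1% and lower in 7.64%. The difference between these lists and the core was not tested.

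**Figure D5:**
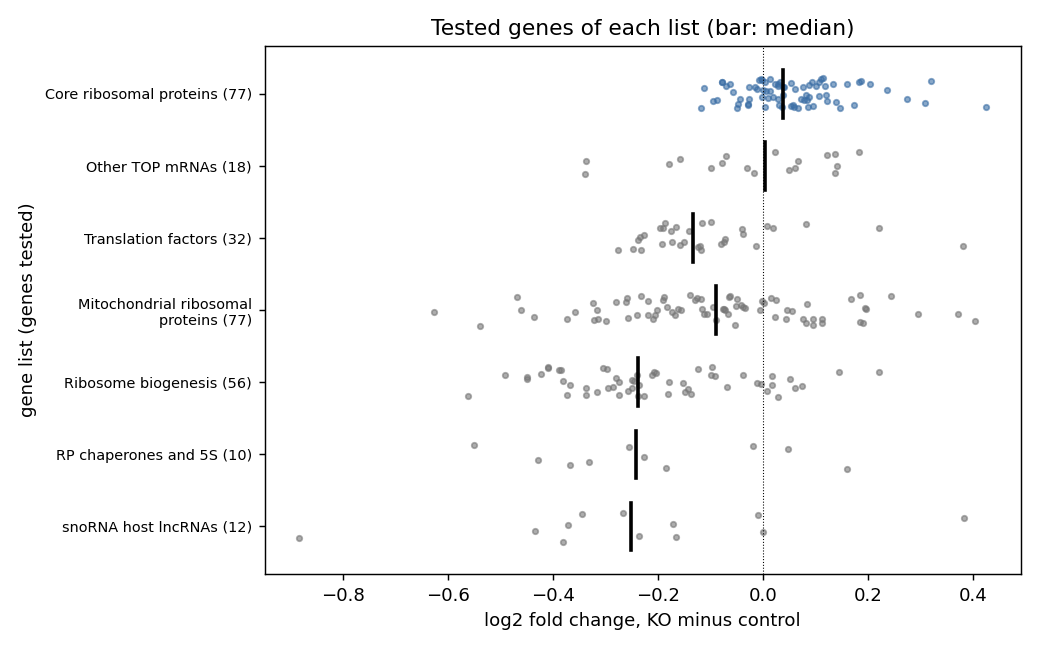
Log2 fold change, KO minus control (horizontal axis), of each tested gene in the core ribosomal protein set and 6 related lists (vertical axis, number tested in parentheses); the bar is the median. The core has a median of 0.04, and the ribosome biogenesis list one of -0.24.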

How the data were processed

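RNA sequencing of 3 KO and 3 control libraries of muscle stem cells was used. Per the labels' protocols, ribosomal RNA was depleted and paired reads of 75 bases were sequenced; the labels name 2 library kits, and which was used is not settled here. The tools named in the submitters' processing notes are STAR, Salmon and DESeq2 1.34.0, with the GRCm38 build. Which one counted, on which strand and with which annotation is not given in the sources. What the authors deposited are raw counts, whole numbers for each Ensembl gene. Between 28.6% and 38.4% of a library fell on the ribosomal RNA gene CT010467.1, which lowers the depth left for other genes.

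Symbols were matched for 55141 of 55487 genes, and coordinates and lengths came from GENCODE M21. Counts were tested with edgeR 4.0.16 in R 4.3.3 (quasi-likelihood, robust, TMM, default low-count filter, two-sided), adjusted over 11224 genes with a threshold of 0.05; the procedure was tested on simulated data. P-values measure the spread between these libraries, which may be partly technical. SE values were derived from the F statistic. CPM values are given as mean ± SD. Sequence sharing was measured in 50-base words of annotated transcripts. Alternatives were other scalings and filters, DESeq2 1.42.0, limma-voom (limma 3.58.1), a replicate block, removal of structural RNA and mitochondrial genes, and libraries left out. Python 3.11.15, pandas 2.3.3, Biopython 1.88 and matplotlib 3.10.9 were used for other steps.

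Members, lists and tests were chosen with earlier results of these data known. Genes named were Setdb1, called members, the extremes of fold change, level and spread, paralogs with their partners, a fixed set of well-studied members, and the called or most abundant genes of each related list; others are marked. Intervals of fold changes come from the fit and cover the spread between libraries. No 2 libraries of a group agreed within sampling noise. Values of some single genes are not reported here, though counts and medians include them.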

Additional observations from a re-analysis of the deposited data

How the results depend on the processing

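Rps4l was called higher in all 17 alternatives run (log2 fold change 3.12 to 3.38, adjusted p up to 8.22e-04), and Setdb1 lower in all of them. The count of called members moved from 1 to 2 with no low-count filter (Rpl22l1) and to 2 without control library 3, alone or with KO library 1. Leaving out 1 library gave 1 to 2 called members. Called genes in all numbered 318, and 511 (373 higher, 138 lower) with no filter, 184 (147 and 37) with DESeq2, 200 (166 and 34) with limma-voom and 152 (without KO library 1) to 345 (without control library 3) with 1 library out. The replicate block gave 247 (206 and 41) and 1 member; numbers were not taken to pair the samples, since same-numbered deviations had correlations of 0.142, -0.0925 and -0.0615. The member median, 0.039, moved beyond the spread between libraries only to 0.214, without control library 3 and KO library 1 together, and changed sign without control library 1 (-0.051), without KO library 2 (-0.031) and with library totals (-0.014). The difference in share, 0.264 percentage points, was -0.011 over all counts of a library and -0.036 to 0.664 with 1 library out. The median level per length was 1236 with the longest transcript, against 974.

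Of 816 values for 48 named genes under the alternatives, 72 changed sign, all in 22 genes that were never called. With the 2 libraries left out together, the log2 fold change became positive for Rpl32l (0.408), Rps3a1 (0.113), Rpl7 (0.149), Rpl22 (0.281), Rpl36al (0.289), Rpl36a (0.143), Rpl26 (0.261), Rpl5 (0.183), Rpl11 (0.103), Rps6 (0.222), Ltv1 (0.098) and Rpl10-ps3 (0.016), and negative for Rpl6l (-0.029). Library totals made it negative for Rpl4 (-0.056), Rpl3 (-0.057), Rpl39 (-0.026) and Rps4x (-0.039). So did no filter (-0.037, -0.033, -0.012 and -0.018) and DESeq2 (-0.031, -0.026, -0.006 and -0.013), in the same order of genes. DESeq2 size factors gave -0.01 for Rpl4 and -0.004 for Rpl3, the minimum of 1 CPM gave -0.009 and -0.004, and upper quartile factors gave 0.003 for Rpl36al and 0.001 for Rps6. With 1 library out, values spanned 0 for 21 genes: Rpl32l (-0.693 to 0.189), Rpl4 (-0.079 to 0.117), Rps3a1 (-0.161 to 0.035), Rpl23a (-0.00047 to 0.317), Rplp1 (-0.084 to 0.429), Rpl6l (-0.033 to 0.354), Rpl3 (-0.058 to 0.039), Rpl7 (-0.144 to 0.057), Rpl10 (-0.018 to 0.193), Rpl22 (-0.27 to 0.108), Rpl36al (-0.126 to 0.144), Rpl36a (-0.223 to 0.031), Rpl39 (-0.108 to 0.191), Rps27l (-0.027 to 0.282), Rps27 (-0.043 to 0.155), Rpl26 (-0.18 to 0.154), Rps4x (-0.07 to 0.105), Rpl5 (-0.181 to 0.083), Rpl11 (-0.179 to 0.083), Rps6 (-0.115 to 0.14) and Ltv1 (-0.096 to 0.045). The cause was not tested. The Nat10 call also ended with library totals and the block (adjusted p = 0.055 and 0.0604). Retrocopies other than Rps4l rest on at most 40 counts a library.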

Other observations

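Of 300 annotated ribosomal protein pseudogenes with -ps symbols, 29 had enough counts to test and none was called by edgeR (with an unadjusted p under 0.05 in 0 of them). Their median log2 fold change was -0.02. The 2 most abundant were Rps2-ps10 and Rpl10-ps3. Of the 50-base words of Rps2 and Rpl10, 43.0% and 33.5% also occur in other genes, with these 2 pseudogenes among the top sharers. The counting could therefore divide some reads between gene and pseudogene. Rps2-ps10 had 77, 130 and 123 counts in KO libraries 1, 2 and 3, and 108, 472 and 693 in control libraries 1, 2 and 3. Control library 1 stood with the KO libraries, and the log2 fold change was -1.80 (SE 0.74). With 1 library left out at a time, it ran from -2.26 to -1.33, and its adjusted p from 3.05e-06 to 0.579 (edgeR). The smallest p came without control library 1, in a fit that called 244 of 11609 genes. Leaving out the library that goes against the difference favours a small p, so that call is not evidence of a change. Rpl10-ps3 had 98, 133 and 199 counts in KO libraries and 155, 165 and 199 in control libraries, with a log2 fold change of -0.14 (SE 0.16).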
